A study of Homo sapiens with 8 samples.

Results

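Cholesterol and fatty acid synthesis was followed through 35 genes chosen by name. They are the enzymes of the mevalonate and sterol steps, the sterol regulatory element binding protein (SREBP) system that controls them, and the enzymes that make, desaturate, elongate and activate fatty acids. All 35 genes were found among the 58051 genes of the count files. Sequencing of mRNA 3′ ends was done in 8 samples of MDA-MB-231 (MDA231) cells, an invasive breast cancer line without hormone receptors. The samples were 2 of parental, unmodified cells, 3 of SDHBKO cells and 3 of SDHBKOSDHAlow cells, all collected without treatment from full medium. SDHBKO cells were made with a TALEN construct aimed at exon 1 of SDHB, and SDHBKOSDHAlow cells share that knockout and carry in addition an shRNA against SDHA. Both genes encode subunits of succinate dehydrogenase, which is complex II of the respiratory chain and an enzyme of the tricarboxylic acid (TCA) cycle. The knockout transfectants were selected with hygromycin and the shRNA transfectants with puromycin. The labels do not say which SDHA shRNA was used, name no empty vector for the SDHBKO samples, and number the biological replicates without saying whether they were separate sublines. P-values therefore measure the spread between these samples, and the effect of a modification cannot be told apart from that of the subline or of the selection.

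Reads counted on genes ranged from 773042 to 1427141 per sample, and 3 counts of a gene corresponded to between 2.21 and 4.06 CPM, the counts scaled to 1e6 counted reads and normalised between samples by the trimmed mean of M-values (TMM). SDHBKOSDHAlow replicate 2 had the most reads and differed most from its own group, with a chi-squared value, divided by its degrees of freedom, of 8.96 and 9.58 against the other two samples. SDHA stood at 81.8 ± 12.3 CPM (SD, n = 2) in parental cells, 143 ± 8.66 CPM (n = 3) in SDHBKO cells and 12.8 ± 4.65 CPM (n = 3) in SDHBKOSDHAlow cells, although reads may be shared with its pseudogenes. Counts of SDHB did not exceed 4 in any sample, and 3′ tags do not check a lesion in exon 1. All 6 markers of MDA231 cells on the list (VIM, CD44, AXL, CAV1, MSN and FOSL1) had a mean normalised count of 57.8 or more. Of 7 luminal epithelial markers, ESR1 and PGR were at 0 and CDH1, EPCAM and ERBB3 had at most 3 counts, whereas KRT19 (75 to 183 counts) and GATA3 (8 to 20 counts) were detected. The 5 fibroblast markers reached at most 4 counts and the 5 adipocyte markers at most 2.

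Cells build cholesterol from acetyl-CoA through mevalonate, isoprenoid diphosphates and squalene, and build fatty acids from the same acetyl-CoA through malonyl-CoA. The acetyl-CoA comes largely from citrate that leaves the mitochondria, which ties both pathways to the TCA cycle. When membrane sterol is low, SCAP escorts SREBP proteins from the endoplasmic reticulum to the Golgi apparatus, where they are cut and released to activate the genes of both pathways, and INSIG proteins hold the complex back when sterol is plentiful.

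Expression of the 35 genes covered a wide range. FASN, the synthase that assembles palmitate, had by far the highest mean over the 8 samples, at 1352 CPM. ACLY, which splits cytosolic citrate into acetyl-CoA, averaged 381 CPM, and SCAP averaged 350 CPM. FDFT1, the squalene synthase, and SREBF2, the gene of the SREBP that favours cholesterol genes, averaged 230 and 208 CPM. A 3′ tag library yields about 1 read per transcript copied, so that these CPM values need no scaling by length, but the efficiency of capture can differ between genes. Genes were tested where the mean normalised count was above 5, and 27 of the 35 passed, as did 7550 of all genes.

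The 8 genes below that limit were not tested. They were IDI1, which isomerises isopentenyl diphosphate (0 to 6 counts), SQLE, the squalene epoxidase (0 to 6 counts), CYP51A1, the lanosterol demethylase (0 in all samples), HSD17B7 and SC5D, late sterol enzymes (0 to 3 counts each), INSIG2 (0 to 1 count), STARD4, a sterol carrier (0 to 8 counts), and ELOVL6, the elongase of palmitate (0 to 14 counts). For CYP51A1, a count of 0 allows up to 3 counts, at most 4.06 CPM in any library, a limit that covers counting error only. IDI1 counts were 6 and 2 for the parental samples, 0, 2 and 1 for SDHBKO, and 0, 1 and 0 for SDHBKOSDHAlow, numbers too small for a fold change.

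Detection went with the base composition of the transcript end, where the reads lie. Among the 17 genes with less than 40% G and C in the last 300 bases of the canonical transcript, 10 were tested. Of the 5 genes between 40% and 50%, 4 were tested, and of the 13 genes at 50% or above all 13 were. The same shares over all protein-coding genes were 30.9%, 40.7% and 42.7%. The median was 32.8% for the 8 untested genes and 49.3% for the 27 tested ones. Whether base composition lowered the counts of the untested genes was not tested.

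**Figure D1:**
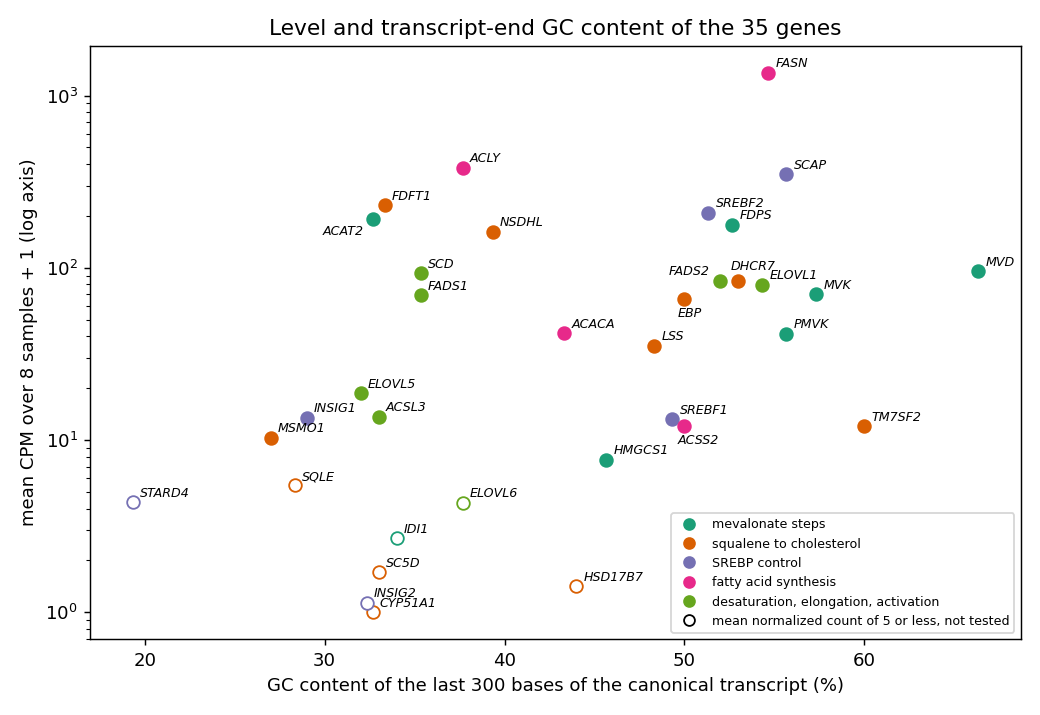
Mean CPM over the 8 samples plus 1 (log axis) against the percentage of G and C in the final 300 bases of each canonical transcript, for the 35 genes, coloured by role. Open circles are the 8 genes below the minimum for testing, which lie between 19.3% and 44% GC, and FASN is the highest point.

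The promoters were read to show what the regulated genes carry. RefSeq promoters (GRCh38.p14, 250 bases before to 50 after each start site) were found for 31 of the 35 genes, with 42 promoters in all, and not for ACAT2, FDFT1, SQLE and FASN. A textbook SREBP target promoter combines a sterol regulatory element with a CCAAT box, bound by NF-Y, or a GC box, bound by SP1. All motifs were searched on both strands, and none contains another whole, but a CCAAT box can overlap a GC box on the other strand. The CCAAT box (letters CCAAT) was in 66.7% of the 42 promoters, in 34.9% of the 8931 promoters of all tested genes and in 34.6% of all 35116 promoters. The GC box (GGGCGG) was in 88.1%, 69.8% and 45.0% of the same sets. The E-box (CACGTG) was in 14.3%, 9.97% and 7.26%, in the genes ELOVL5, INSIG1, LSS, SC5D and SCAP. The sterol regulatory element TCACNCCAC was in 2.38%, 0.985% and 1.13% of the same sets. Among the 42 promoters this was 1, that of SREBF2 itself. A match is a string of letters and not a shown binding site, and the absence of these exact letters says nothing of SREBP binding.

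Windows of 4 genes are given 5′ to 3′ on the strand of the gene, with the matches in capitals. SCD, ELOVL1 and ACSL3 are shown because their expression passed the test in 1 of the comparisons, and SREBF2, chosen after its values were seen, because it alone held the sterol element. The SCD window is the 250 bases before the start site (chr10:100346983-100347232, plus strand). Its capitals mark CCAAT at -229 and -186 and the reverse complement of the GC box at -33 and -11, counted from the start site. The others are 30 bases each: ELOVL1 at chr1:43368059-43368088 (minus strand, the reverse complement of the GC box at -69 running into CCAAT at -65), ACSL3 at chr2:222860949-222860978 (plus strand, CCAAT at -75), and SREBF2 at chr22:41832962-41832991 (plus strand, the sterol element).
SCD: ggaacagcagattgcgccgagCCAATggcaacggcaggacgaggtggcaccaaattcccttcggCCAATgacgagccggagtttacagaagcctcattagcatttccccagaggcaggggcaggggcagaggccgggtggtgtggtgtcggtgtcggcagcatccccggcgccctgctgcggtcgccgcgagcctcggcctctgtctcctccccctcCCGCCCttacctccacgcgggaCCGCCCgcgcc
ELOVL1: cctgccggCCGCCCAATcagcgggcgcccc
ACSL3: accgctcgcgggCCAATgggtggcagcctc
SREBF2: tgacgcgccaTCACCCCACgcaccgcttcg

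The first comparison asks how expression differed once complex II could not be assembled, in SDHBKO against parental cells. FASN and SCD, the enzymes that make palmitate and turn saturated into monounsaturated fatty acids, were lower in SDHBKO cells. ACAT2, the cytosolic acetoacetyl-CoA thiolase, and ELOVL1, an elongase of very long chain fatty acids, were higher. With an adjusted p below 0.1 in the quasi-likelihood test of edgeR as the threshold, 4 of the 27 tested genes were called (14.8%), against 5.54% of all genes tested. The 2 higher genes stood against 3.14% of all genes, and the 2 lower ones against 2.4%. At an unadjusted p below 0.05 there were 9 of 27 (33.3%) against 17.5% of all genes. The 27 genes together had no common direction. Of their log2 fold changes 10 were above 0 (37.0%, against 49.9% of all genes). The median of the 27 was -0.09, beside -0.00069 over all genes tested. Above 0 were 6 of the 13 tested cholesterol genes (46.2%), 2 of the 4 of SREBP control (50%) and 2 of the 10 fatty acid genes (20%). In 15 of the 27 genes (55.6%) the samples of the groups did not overlap, against 37.9% of all genes, with 7 higher (25.9%, against 19.3%) and 8 lower (29.6%, against 18.6%). Of the 13 tested genes of cholesterol synthesis 1 was called (7.69%), and of the 10 tested genes of fatty acid synthesis 3 were (30%), against 5.54%. In bulk RNA such as this, fewer cells of a kind and less RNA per cell cannot be told apart.

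FASN (ENSG00000169710, chr17:82078338-82098294 in GRCh38) carried the largest share of the pathway's reads. In parental cells it was at 1710 and 2001 CPM, in SDHBKO cells at 937, 1016 and 994 CPM, and in SDHBKOSDHAlow cells at 1066, 1715 and 1377 CPM. Every SDHBKO sample was thus below every other sample, and the SDHBKOSDHAlow samples spread from near the SDHBKO level to the parental level. The log2 fold change of SDHBKO against parental cells was -0.92 (SE 0.21, 95% CI -1.35 to -0.48, adjusted p = 0.023 by edgeR), a ratio of 0.529. Leaving out either parental sample or SDHBKO replicate 1 raised the adjusted p to 0.279, 0.235 and 0.109, with fold changes of -1.03, -0.80 and -0.88.

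SCD, the stearoyl-CoA desaturase (ENSG00000099194, chr10:100347233-100364826), had the smallest p of the 27. It was at 193 and 110 CPM in parental cells, 32.4, 78.0 and 53.3 CPM in SDHBKO cells and 84.7, 81.1 and 105 CPM in SDHBKOSDHAlow cells. The parental samples were above all others, the SDHBKO samples below all others, and within groups the parental pair was farthest apart in CPM. SDHBKO cells fell by 1.46 on the log2 scale from parental cells (SE 0.31, 95% CI -2.10 to -0.82, adjusted p = 0.015 by edgeR), which is 0.363 of the parental level. Without parental replicate 1 the fold change was -0.999 (adjusted p = 0.468), and without SDHBKO replicate 1 it was -1.21 (adjusted p = 0.107).

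The other genes of fatty acid carbon entry changed less. ACLY was at 394 and 371 CPM in parental, 299, 350 and 321 CPM in SDHBKO and 485, 386 and 440 CPM in SDHBKOSDHAlow cells. Its SDHBKO samples lay below both other groups, but the log2 fold change from parental cells was -0.24 (95% CI -0.67 to 0.18, adjusted p = 0.580 by edgeR). ACACA, the acetyl-CoA carboxylase that supplies FASN with malonyl-CoA, had 41 and 28, then 36, 28 and 43, then 32, 38 and 47 counts in the same order, with all groups overlapping. ACSS2, which makes acetyl-CoA from acetate, had only 1 to 18 counts, and its interval of -1.44 to 1.26 on the log2 scale leaves a wide range of changes possible.

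Desaturation, elongation and activation genes moved in both directions. ELOVL1 (ENSG00000066322, chr1:43363398-43368074) was at 36.6 and 43.3 CPM in parental cells, 126, 64.8 and 118 CPM in SDHBKO cells and 72.7, 131 and 37.5 CPM in SDHBKOSDHAlow cells. The SDHBKO samples were all above the parental ones, while the SDHBKOSDHAlow samples covered the whole range. Its log2 fold change was 1.36 (SE 0.41, 95% CI 0.52 to 2.21, adjusted p = 0.079 by edgeR), or 2.57-fold. FADS2, the delta-6 desaturase of polyunsaturated fatty acids, stayed between 68.5 and 99.7 CPM in every sample, at 78.9 and 99.7 in parental, 85.2, 82.4 and 83.2 in SDHBKO and 79.9, 68.5 and 88.2 CPM in SDHBKOSDHAlow cells. Its interval of -0.61 to 0.43 does not reach the size of the SCD change. FADS1, the delta-5 desaturase next to it in the genome, had a fold change of 0.57 (95% CI -0.15 to 1.30), and ELOVL5, an elongase of polyunsaturated chains, had -0.45 (95% CI -1.48 to 0.59). ACSL3, which activates fatty acids on the endoplasmic reticulum and lipid droplets, missed the threshold with -1.69 (adjusted p = 0.103 by edgeR). Without parental replicate 1 this was -0.71 (adjusted p = 0.844), whereas ACSL3 was called with no filter (adjusted p = 0.070), with only these 2 groups in the fit (adjusted p = 0.047) and in 3 of the 8 fits that left out a sample.

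**Figure D2:**
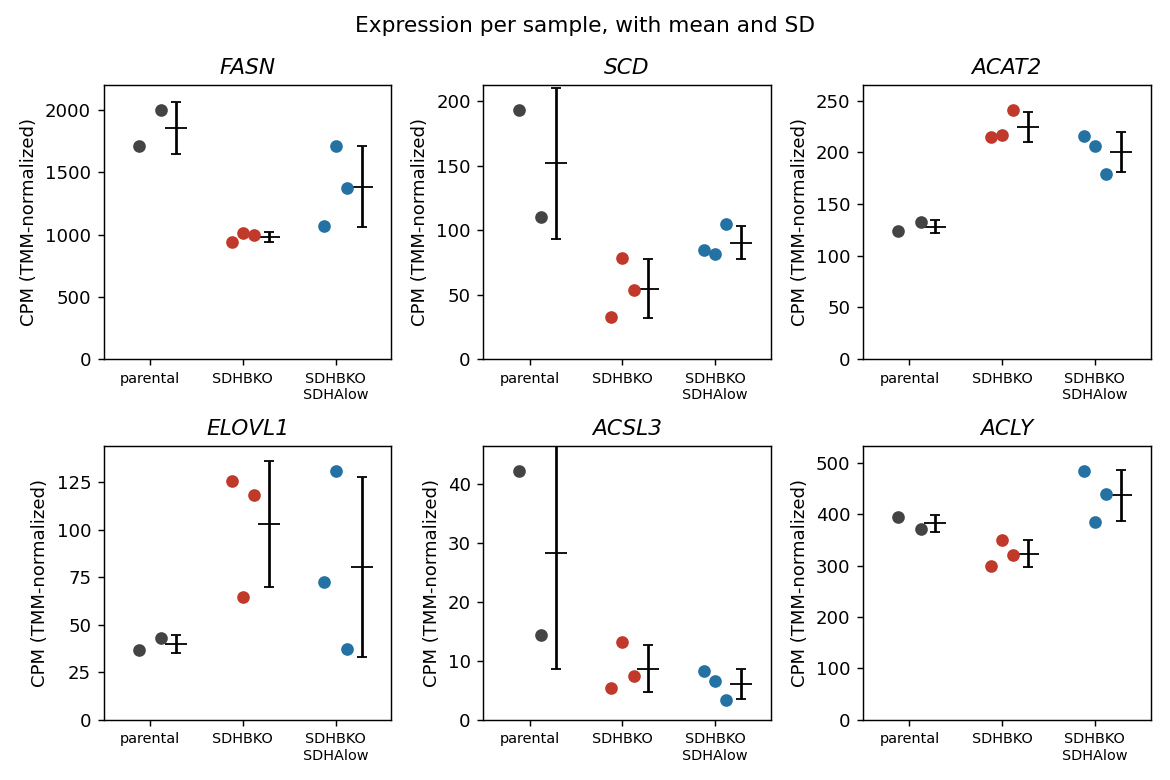
CPM (normalised by TMM) of FASN, SCD, ACAT2, ELOVL1, ACSL3 and ACLY in each sample of parental (n = 2), SDHBKO (n = 3) and SDHBKOSDHAlow (n = 3) cells, with the mean and SD beside the points and each axis starting at 0. FASN lies between 937 and 1016 CPM in the SDHBKO samples and at 1710 and 2001 CPM in the parental ones, and ACSL3 owes its parental mean mostly to 1 sample at 42.3 CPM.

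In the mevalonate steps, ACAT2 (ENSG00000120437, chr6:159762045-159779112) was the gene that rose. It was at 123 and 132 CPM in parental cells, 215, 216 and 241 CPM in SDHBKO cells and 216, 206 and 179 CPM in SDHBKOSDHAlow cells. All 6 samples with the SDHB knockout were above both parental samples. The log2 fold change of SDHBKO cells was 0.81 (SE 0.22, 95% CI 0.34 to 1.27, adjusted p = 0.058 by edgeR), or 1.75-fold, and with the replicate number as a block the adjusted p was 0.139. The last 300 bases of ACAT2 lie opposite those of TCP1, a chaperonin subunit gene. The sources used here do not say whether strand entered the counting. Without strand, reads in this overlap would fall on 2 genes and be counted for neither. TCP1 itself had a log2 fold change of -0.01 (adjusted p = 0.993 by edgeR). The last 300 bases of FDPS, LSS and HMGCS1 also overlap genes on the opposite strand, by 257, 252 and 169 bases. Those partner genes had at most 3 counts in any sample. Whether these overlaps lowered any count was not tested.

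The other mevalonate genes did not pass the test. FDPS, which makes farnesyl diphosphate and has processed pseudogenes that may share its reads, was at 160 and 161 CPM in parental, 224, 178 and 170 CPM in SDHBKO and 196, 141 and 183 CPM in SDHBKOSDHAlow cells. MVD, the mevalonate diphosphate decarboxylase, was at 85.7 and 134, then 58.1, 80.2 and 92.8, then 107, 102 and 95.9 CPM in the same order. HMGCS1, the synthase that feeds the committed step, had few counts, 16 and 8 in parental, 2, 5 and 5 in SDHBKO and 3, 6 and 3 in SDHBKOSDHAlow cells. Both parental samples of HMGCS1 were above all others, and its log2 fold change of -1.63 had a wide interval (95% CI -2.92 to -0.33, adjusted p = 0.164 by edgeR). The kinases MVK and PMVK had fold changes of 0.56 (95% CI -0.02 to 1.13) and -0.09 (95% CI -0.76 to 0.58).

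From squalene to cholesterol, 0 of 7 tested genes passed in edgeR, against 5.54% of all genes. An unadjusted p below 0.05 was found for 2 of 7 (28.6%, against 17.5% of all genes). DESeq2 called 0 of the 4 to which it gave an adjusted p. FDFT1 was nearly level, at 219 and 231 CPM in parental, 212, 202 and 223 CPM in SDHBKO and 243, 242 and 270 CPM in SDHBKOSDHAlow cells. NSDHL, a sterol C4 dehydrogenase, was at 110 and 140, then 187, 130 and 175, then 171, 251 and 128 CPM, and its groups overlapped. DHCR7, the reductase of the last step, was at 99.4 and 117, then 90.6, 92.3 and 87.4, then 44.1, 70.7 and 61.7 CPM. Its samples thus formed a descending order of groups without overlap, although the SDHBKO value differed from the parental one by only -0.26 (95% CI -0.79 to 0.27). LSS, the lanosterol synthase, was lower (-0.87, adjusted p = 0.217 by edgeR) and EBP, a sterol isomerase, higher (0.76, adjusted p = 0.181) at the unadjusted threshold only. MSMO1, a sterol methyl oxidase, and TM7SF2, a sterol C14 reductase, had 4 to 21 and 3 to 14 counts and intervals of -2.35 to 0.14 and -1.18 to 1.32.

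In the control system none of the 4 tested genes was called in edgeR, against 5.54% of all genes. An unadjusted p below 0.05 was found for 1 (25%, against 17.5% of all genes). SCAP was at 283 and 312 CPM in parental, 433, 309 and 364 CPM in SDHBKO and 399, 343 and 353 CPM in SDHBKOSDHAlow cells. SREBF2 was at 183 and 181, then 241, 201 and 218, then 202, 209 and 228 CPM, with both knockout groups above the parental pair. Their fold changes of 0.31 (95% CI -0.14 to 0.75) and 0.27 (95% CI -0.18 to 0.72) did not pass the test. INSIG1 was at 12.6 and 18.4, then 6.76, 8.79 and 12.8, then 9.54, 17.7 and 13.2 CPM, and its groups overlapped. SREBF1, the gene of the SREBP that favours fatty acid genes, had 21 and 16 counts in parental, 4, 10 and 9 in SDHBKO and 3, 10 and 14 in SDHBKOSDHAlow cells. Its fold change was -1.34 (95% CI -2.48 to -0.20, adjusted p = 0.195 by edgeR), and its end overlaps that of RAI1, on the opposite strand, by 120 bases.

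**Figure D3:**
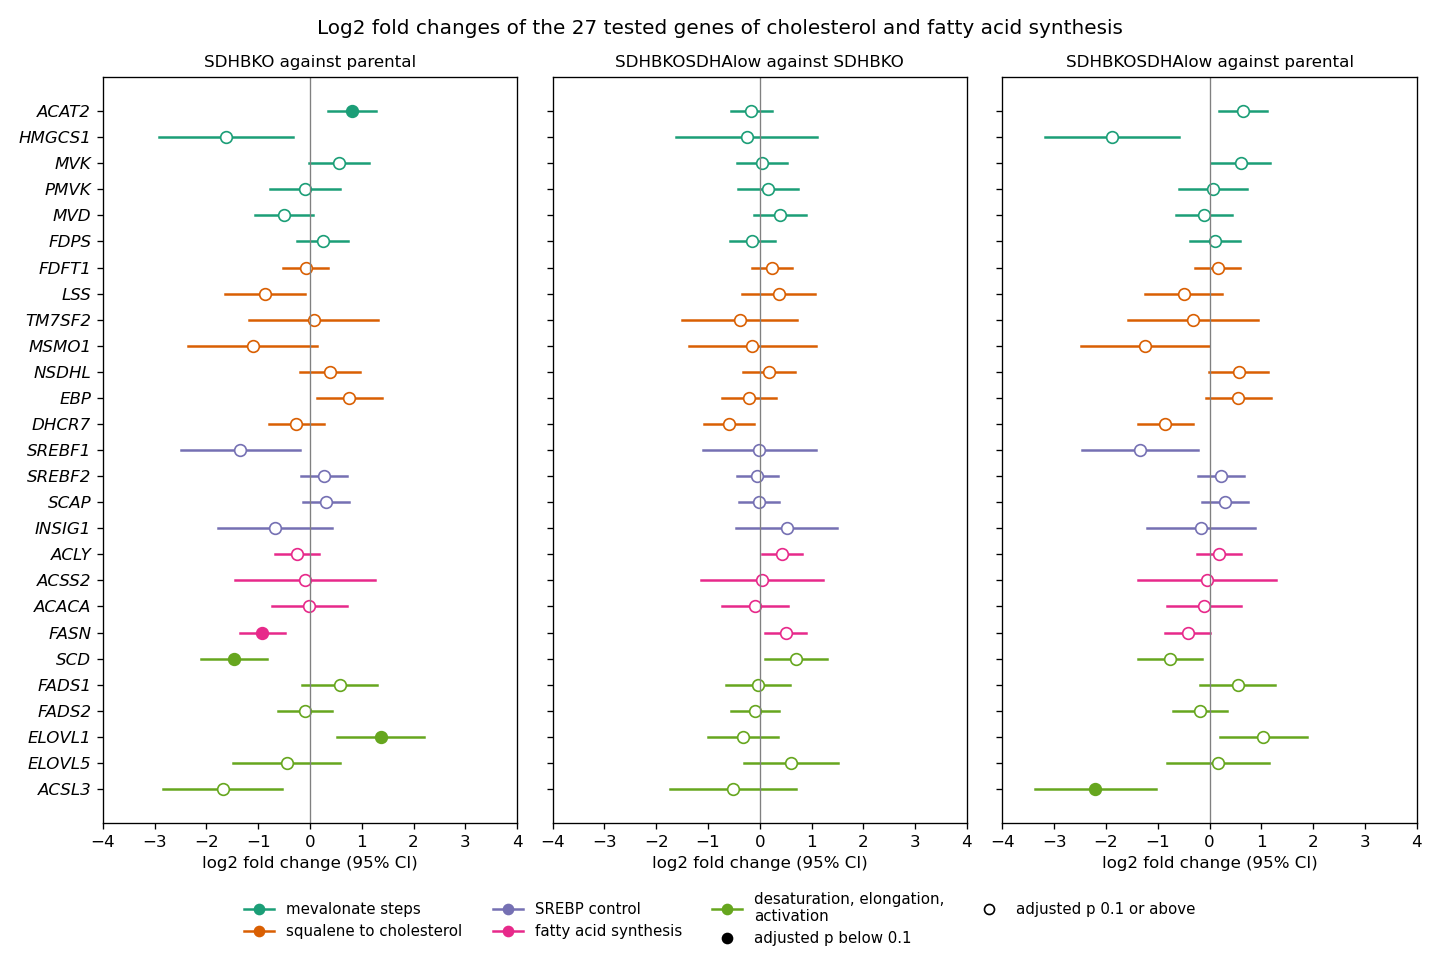
Log2 fold changes with 95% confidence intervals of the 27 tested genes in the 3 comparisons, ordered and coloured by role, with filled circles for an adjusted p below 0.1. The filled points are ACAT2, FASN, SCD and ELOVL1 in SDHBKO against parental cells and ACSL3 in SDHBKOSDHAlow against parental cells, and none in SDHBKOSDHAlow against SDHBKO cells.

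The number of calls depended on single samples. It was 0 of 27 without parental replicate 1 and 0 of 27 without SDHBKO replicate 1, 1 without parental replicate 2 (SCD), 2 without SDHBKO replicate 3 (FASN and SCD) and 4 or 5 without any other sample. Over all genes the count fell from 418 to 0, 77, 46 and 148 in the same 4 cases, and a lone parental sample was assumed to vary like the samples of the other groups. ELOVL1 and ACAT2 lost their call in each of these 4 cases, with fold changes of 1.20 to 1.49 and 0.76 to 0.86.

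The summed CPM of the 35 genes was 4154 and 4433 in parental cells, 3530, 3443 and 3560 in SDHBKO cells and 3831, 4350 and 3952 in SDHBKOSDHAlow cells. All SDHBKO samples were below all others. Without FASN the sums were 2444 and 2432, then 2593, 2426 and 2566, then 2765, 2636 and 2575. SDHBKO and parental samples then overlapped, whereas every SDHBKOSDHAlow sample was above both parental samples. FASN made up 41.2% and 45.1% of the sum in parental, 26.5%, 29.5% and 27.9% in SDHBKO and 27.8%, 39.4% and 34.8% in SDHBKOSDHAlow cells. The 18 cholesterol genes alone summed to between 1046 and 1273 CPM in all samples.

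**Figure D4:**
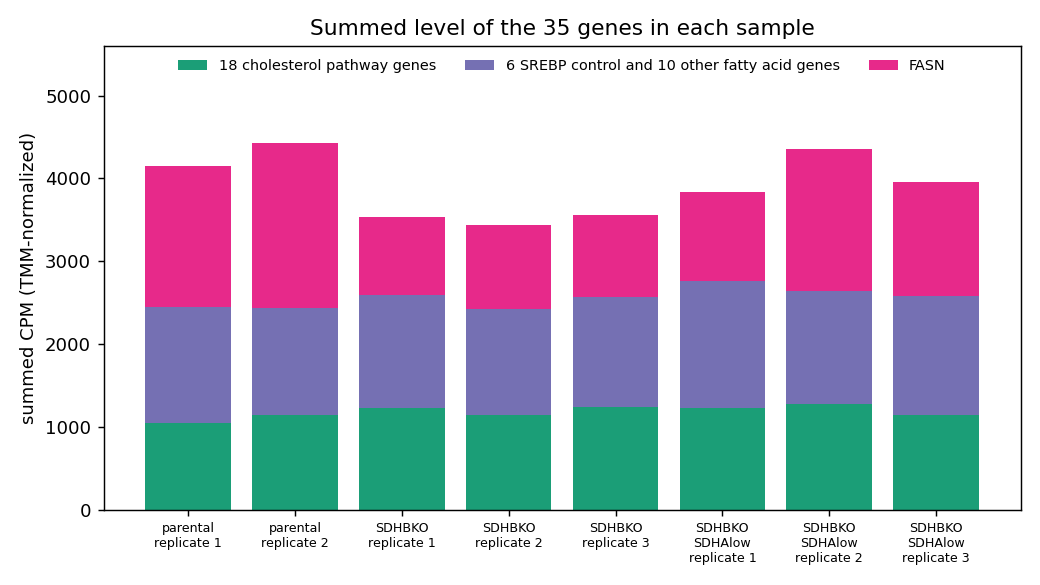
Summed CPM (normalised by TMM) of the 35 genes in each of the 8 samples, stacked as the 18 cholesterol pathway genes, the 16 SREBP control and other fatty acid genes, and FASN. The lower segments together reach between 2426 and 2765 CPM and are higher in every SDHBKOSDHAlow sample than in either parental sample. The FASN segment is lowest in the 3 SDHBKO samples, at 937 to 1016 CPM.

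The second comparison asks what the SDHA knockdown adds on the SDHB knockout background. None of the 27 genes was called in SDHBKOSDHAlow against SDHBKO cells in edgeR, against 1.51% of all genes tested, and DESeq2 called 0 of the 19 to which it gave an adjusted p. At an unadjusted p below 0.05 there were 4 of 27 (14.8%), against 12.1% of all genes. These were FASN (0.50, 95% CI 0.10 to 0.89, adjusted p = 0.277 by edgeR), SCD (0.70, 95% CI 0.11 to 1.30, adjusted p = 0.314), ACLY (0.43, 95% CI 0.05 to 0.81, adjusted p = 0.342) and DHCR7 (-0.60, 95% CI -1.08 to -0.11, adjusted p = 0.291). The median over the 27 genes was -0.01, beside 0.01 over all genes, and 12 of them (44.4%) were above 0, against 51.1% of all genes.

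In 5 genes every SDHBKOSDHAlow sample lay above every SDHBKO sample, namely FASN, SCD, ACLY, FDFT1 and MVD (18.5% of 27), and in DHCR7 every sample lay below (3.70%). Over all genes tested 8.73% lay above and 8.7% below in this way, 17.4% in all, against 22.2% of the 27. The fatty acid genes FASN, SCD and ACLY had their lowest group in SDHBKO cells, which both this comparison and the first one share, so that their opposite directions are not independent of each other. Without SDHBKOSDHAlow replicate 2 the FASN value fell to 0.29, and DHCR7 (-0.78, adjusted p = 0.098 by edgeR) and ELOVL1 (-0.92, adjusted p = 0.091) were called. SCAP and SREBF2 had narrow 95% intervals, of -0.40 to 0.38 and -0.44 to 0.35, whereas intervals of genes with few counts, such as HMGCS1 at -1.62 to 1.11, leave room for large changes.

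The third comparison, of SDHBKOSDHAlow with parental cells, asks which differences were there with both modifications present. ACSL3 (ENSG00000123983, chr2:222860942-222944639) was the 1 gene called of 27 (3.70%), against 0.954% of all genes tested. Its counts were 37 and 11 for the parental samples, 4, 12 and 7 for SDHBKO and 7, 9 and 3 for SDHBKOSDHAlow. In CPM these were 42.3 and 14.4, then 5.41, 13.2 and 7.46, then 8.35, 6.63 and 3.31, and the parental samples were above all others but far apart. The log2 fold change was -2.21 (SE 0.57, 95% CI -3.38 to -1.03, adjusted p = 0.096 by edgeR). Without parental replicate 1 it was -1.22 (adjusted p = 0.900), and the call held in only 2 of the 8 fits that left out a sample, those without parental replicate 2 and without SDHBKOSDHAlow replicate 2. It was also lost with filterByExpr, with only these 2 groups in the fit and with the replicate number as a block, and DESeq2 gave it no adjusted p (unadjusted p = 0.0031).

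At an unadjusted p below 0.05 there were 9 of 27 (33.3%), against 12.3% of all genes. Besides ACSL3 they were ACAT2 (0.64, adjusted p = 0.216 by edgeR), ELOVL1 (1.04, adjusted p = 0.285), MVK (0.60, adjusted p = 0.374), HMGCS1 (-1.88, adjusted p = 0.201), DHCR7 (-0.86, adjusted p = 0.152), SREBF1 (-1.35, adjusted p = 0.295), SCD (-0.76, adjusted p = 0.285) and MSMO1 (-1.25, adjusted p = 0.398). FASN differed from parental cells by -0.42 (95% CI -0.85 to 0.01) and SCD kept a lower value in every SDHBKOSDHAlow sample than in either parental sample. The groups did not overlap in 12 of the 27 genes (44.4%, against 30.8% of all genes), 5 of them higher (18.5%, against 15.2%) and 7 lower (25.9%, against 15.5%). The median over the 27 genes was -0.05, beside 0.02 over all genes, and 13 of them (48.1%) were above 0, against 51.4%. This comparison shares its samples with the other two.

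A wider list of 64 genes around the pathway gave further calls, of which 46 were tested. In SDHBKO against parental cells 5 of the 46 were called (10.9%, against 5.54% of all genes), 2 higher and 3 lower. The list of acetyl-CoA and NADPH supply held the clearest one, SLC25A1, the mitochondrial citrate carrier that exports the carbon for both pathways. It was at 437 and 491 CPM in parental cells, 119, 208 and 159 CPM in SDHBKO cells and 292, 343 and 390 CPM in SDHBKOSDHAlow cells, so that the groups did not overlap. SDHBKO cells fell by 1.51 on the log2 scale from parental cells (SE 0.23, adjusted p = 0.0027 by edgeR), and SDHBKOSDHAlow cells were 1.07 above SDHBKO cells (SE 0.21, adjusted p = 0.014). It lost the first call without parental replicate 1 (-1.60, adjusted p = 0.114) and the second without SDHBKO replicate 1 (0.90, adjusted p = 0.123). From the same list, IDH1, PGD, AACS and ACAT1 were not called in any comparison.

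Among 14 tested genes of other sterol and isoprenoid steps, 3 were called in SDHBKO against parental cells (21.4%, against 5.54% of all genes). LBR, a nuclear envelope protein with sterol C14 reductase activity, had 57 and 30 counts in parental, 3, 20 and 22 in SDHBKO and 11, 27 and 37 in SDHBKOSDHAlow cells (-1.62, adjusted p = 0.084 by edgeR). SOAT1, which esterifies cholesterol for storage, had 24 and 20, then 4, 10 and 11, then 13, 24 and 22 counts (-1.48, adjusted p = 0.092 by edgeR). STARD3, a sterol carrier of late endosomes, was at 76.6 and 72.1, then 114, 137 and 142, then 119, 86.2 and 93.7 CPM (0.82, adjusted p = 0.090 by edgeR). Parental and SDHBKO samples did not overlap in any of these 3 genes, which were picked by a test on the same samples. Over the 14 genes of the list this held for 5 (35.7%, against 37.9% of all genes). Each of the 3 calls was lost without either parental sample and without SDHBKO replicate 1 or 3, with adjusted p up to 0.619 for LBR and 0.492 for SOAT1 and STARD3. SOAT1 and STARD3 also lost theirs without SDHBKO replicate 2, with no filter and with the replicate number as a block. DESeq2 called STARD3 (adjusted p = 0.062) and gave LBR and SOAT1 no adjusted p.

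Among 13 tested genes of SREBP processing and its partner factors, 1 was called in SDHBKO against parental cells (7.69%, against 5.54% of all genes). This was USF2, an E-box binding factor. It was at 145 and 146 CPM in parental, 273, 235 and 228 CPM in SDHBKO and 222, 227 and 150 CPM in SDHBKOSDHAlow cells (0.75, adjusted p = 0.092 by edgeR), and DESeq2 called it too. The call held in 2 of the 8 fits that left out a sample, those without SDHBKOSDHAlow replicate 2 or 3, and the adjusted p reached 0.527 without parental replicate 1. It was also lost with no filter (adjusted p = 0.112), with the replicate number as a block (adjusted p = 0.114) and after a correction for GC content (adjusted p = 0.107). None of the 13 tested genes of other fatty acid steps was called in this comparison in edgeR, against 5.54% of all genes. An unadjusted p below 0.05 was found for 4 of them (30.8%, against 17.5% of all genes), and DESeq2 called FADS3. In SDHBKOSDHAlow against SDHBKO cells, SLC25A1 was the 1 gene called of the 46 (2.17%, against 1.51%). In SDHBKOSDHAlow against parental cells 0 of 46 were called in edgeR, against 0.954% of all genes, with 5 at an unadjusted p below 0.05 (10.9%, against 12.3%), and DESeq2 called 0 of the 23 to which it gave an adjusted p.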

How the data were processed

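For the deposited raw counts, the authors used Trimmomatic for quality trimming, Sortmerna to take out ribosomal and mitochondrial RNA, and STAR 2.5.2b to align to GRCh38 (annotation release 87) and count per gene. Libraries came from the QuantSeq 3′ kit (forward). The deposited normalized counts were not used. In them replicates 1 and 3 of SDHBKO are exchanged relative to the raw counts, so that these 2 replicate numbers are uncertain. Their group is not affected. Reads on no gene or on several (18.8% to 28.6% of a file) were left out of library sizes.

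Genes with a mean count above 5 after DESeq2 size factors were tested with the quasi-likelihood test of edgeR 4.0.16 (TMM, all 8 samples and 3 groups in 1 fit) and called at a Benjamini-Hochberg adjusted p below 0.1 over all genes tested. CPM used TMM library sizes. The SE is the log2 fold change divided by the square root of F. The biological coefficient of variation was 21.5%. The script was tested on simulated data. Alternatives were DESeq2 1.42.0, its size factors, 2 other filters, a threshold of 0.05, fits of 2 groups, a replicate block, leaving out each sample and, added after seeing the data, a GC correction (lowess, span 0.3). GENCODE release 44 gave symbols, positions and base composition.

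The member genes and the wider lists were chosen with earlier results of these data known. All member genes are named. Values per sample are given for those called in any comparison and the 3 of highest mean CPM in each role group. Counts per sample of HMGCS1, SREBF1 and IDI1 are given outside this rule. In each of them both parental samples were above all SDHBKO samples. Genes outside the rule with the opposite order, such as MVK, EBP and FADS1, are not given per sample. Wider-list genes are described where called.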

Additional observations from a re-analysis of the deposited data

How the results depend on the processing

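The calls in SDHBKO against parental cells numbered 4 of the synthesis genes and 5 of the wider list. At an adjusted p below 0.05 they were 2 and 1. The wider list gave 3 with no filter and 9 with only the 2 groups compared. With samples left out in turn, the counts ranged from 0 to 5 and from 0 to 9. In SDHBKOSDHAlow against SDHBKO cells they were 0 and 1, and 0 to 2 and 0 to 1 with samples left out. In SDHBKOSDHAlow against parental cells the 1 call among the synthesis genes became 0 in DESeq2 (which gave ACSL3 no adjusted p), with filterByExpr, at 0.05, and with only the 2 groups compared, 2 with no filter (ACSL3 and ELOVL1), and 0 to 2 with samples left out. The wider list, at 0, gave 1 with no filter (TECR) and 0 to 1 with samples left out. The cause was not tested.

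Same-numbered samples did not deviate together (mean r -0.07 over 7 pairs, from -0.27 to 0.09). The SDHBKO numbers are those of the raw count files, and some of them are uncertain, as stated above. Several of the pairs rest on these uncertain numbers, so this check cannot decide whether the number marks a pairing. With the replicate number as a block, the wider list had 2 calls in SDHBKO against parental cells (LBR and SLC25A1), the synthesis genes 3, and 0 in SDHBKOSDHAlow against parental cells, while all calls in SDHBKO against parental cells went from 418 to 199.

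Of 1498 single-gene values under the alternatives, 1429 kept their side of the threshold, 59 lost a call, 10 gained one and 0 called values reversed direction. These values cover the tested synthesis genes and, of the wider list, only the genes called in the main fit. ACSL4, FADS3, SP1 and TECR of the wider list gained calls under some alternatives and are not among the gains. Most values that kept their side were not called in the main fit, so the losses weigh on a much smaller number of called values. With no filter, 7 of the 8 untested genes entered the fit and 0 were called in any comparison, with an unadjusted p below 0.05 for ELOVL6 in SDHBKO and IDI1 in SDHBKOSDHAlow against parental cells.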
